A study of Drosophila melanogaster with 185 samples.

Results

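The chemoreceptor genes of Drosophila melanogaster were followed in neurons of the adult brain. A gene counted as a chemoreceptor gene when its symbol in the deposited counts begins with Or, Ir or Gr followed directly by a digit. By that rule 185 of 15682 genes were members: 60 Or, 62 Ir and 63 Gr genes. Odorant receptors (Or) and gustatory receptors (Gr) are membrane channels of olfactory and taste neurons, and ionotropic receptors (Ir) are a family related to glutamate receptors that serves smell, taste, temperature and humidity sensing. Most act in sensory neurons of the antennae, mouthparts and legs. An Or works together with the co-receptor Orco, and many Irs work with Ir25a, Ir8a or Ir76b. Mushroom body neurons lie further inward: they receive odour information by way of relay neurons of the antennal lobe.

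The series sampled small pools of neurons of 7 mushroom body classes by patch pipette. All flies shared a w1118 background and carried UAS-eGFP, and each class was found by the GFP of its GAL4 line: gamma Kenyon cells by NP1131, alpha/beta Kenyon cells by c739, DAL by G0431, V2 by R71D08, V3 by CG0239, 3-86 by 3-86-GAL4 and R27G01 by R27G01-GAL4. Trained flies had received 8 spaced blocks of an odour (3-octanol or 4-methylcyclohexanol) together with electric shock, and control flies had received the shock ahead of the odour. There were 6 trained and 6 control libraries of gamma and of alpha/beta Kenyon cells, 5 and 5 of DAL, V2 and V3, 4 trained and 6 control libraries of 3-86, and 4 and 4 of R27G01. Kenyon cells, the neurons whose fibres form the mushroom body, were pooled at over 100 cells a library. The classes DAL, V2, V3, 3-86 and R27G01, grouped here as output neurons, were pooled at 12 cells for V2 and at 4 cells for the rest. There were also 2 brain libraries and 3 whole-fly libraries of the UAS-GFP reporter line, and 24 whole-fly libraries of the 7 driver lines carrying UAS-GFP.

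Depth ranged between 1.69 and 22.9 M counted reads (M for mega) in the 72 neuron libraries, was 1.33 and 2.27 M in the brains, and lay between 0.932 and 16.2 M in the 27 whole-fly libraries. Levels are in CPM, the reads of a gene for each 1 M reads counted in its library. They are not divided by gene length, so genes are not ranked against each other by CPM, and a sum of CPM over genes gives more weight to long and highly expressed ones. All 5 neuronal markers (elav, n-syb, brp, Syt1, para) were detected in most libraries of every neuron class. They were so in whole flies too, so detection alone does not test the label of the cells. Their summed median lay between 3272 CPM (R27G01) and 11278 CPM (alpha/beta Kenyon cells) in the neuron classes. It was 73.4 CPM in whole flies and 13283 CPM in brains. Fat body genes (the 3 yolk protein genes, Lsp2 and Fbp1) were present as well: their summed median was 197 CPM in gamma and 632 CPM in alpha/beta Kenyon cells, 4658 CPM in V2, 12979 CPM in V3, 22518 CPM in DAL, 27938 CPM in 3-86 and 50953 CPM in R27G01, and their part in the results below was not tested. The library 3-86 trained 2 and the library 3-86 control 3 each sum runs that differ (chi-square per degree of freedom 317 and 230, where 81 libraries lay between 0.976 and 1.044), and a run of one matches a run of the other (1.07). Without these 2 libraries the 14 detected genes below were the same, and so was each count of calls that edgeR gave with every class as its own group. Alpha/beta control 6 sums a pair of samples that also differ (35.3).

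Most chemoreceptor genes left little trace in these neurons. With detection set at 1 CPM, 100 of the 185 genes were detected in none of the 72 neuron libraries, 53 were detected in 1 to 3 libraries, 18 in more than 3 libraries but in most libraries of no class, and 14 in most libraries (more than 50%) of at least 1 class. Those 14 make 7.57% of the chemoreceptor genes, whereas 53.2% of all 15682 genes met the same rule. They are Or22a, Or22b, Or43b, Or45a, Or63a and Or85f among the 60 Or genes, Ir47a, Ir56a, Ir68a, Ir76a and Ir93a among the 62 Ir genes, and Gr28b, Gr39a and Gr77a among the 63 Gr genes. These 14 held 88.0% of the summed chemoreceptor CPM of the neuron libraries. For 9 genes (Gr22d, Gr64b, Gr64c, Gr64d, Gr64e, Gr98b, Ir52a, Or46a and Or83a) no read was counted in any library of the series.

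**Figure D1:**
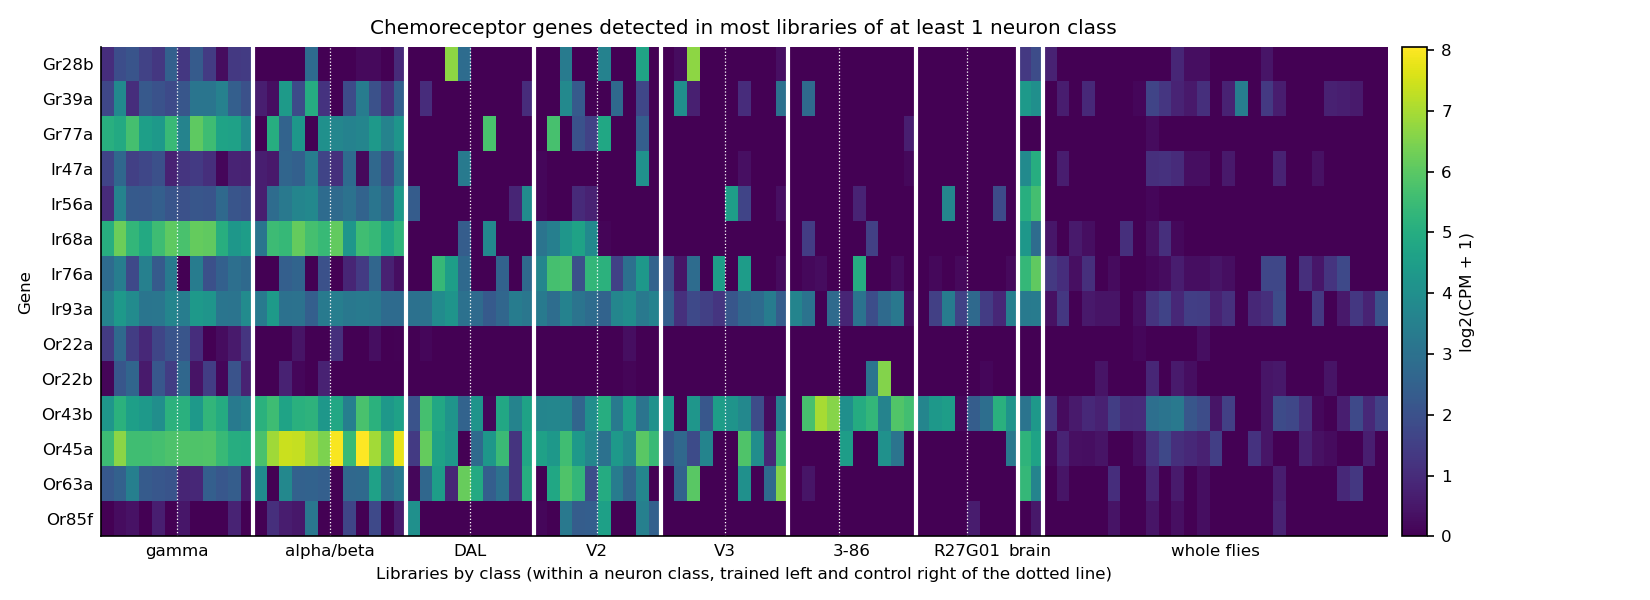
Levels of the 14 genes, as log2(CPM + 1), in each library. Each column is a library, grouped by class, and within a neuron class trained libraries stand left of the dotted line. Ir93a and Or43b run across all 7 neuron classes, Ir68a and Gr77a are detected in 24 and 22 of the 24 Kenyon cell libraries, and most of the 14 are near 0 in whole flies.

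The number of these genes differed between classes. Gamma Kenyon cells had 13 of the 14 in most of their libraries (all but Or85f), alpha/beta Kenyon cells 9, V2 6, DAL 4, V3 3, and 3-86 and R27G01 2 each. All 9 of alpha/beta were among the 13 of gamma. Ir93a and Or43b were detected in most libraries of all 7 classes. The brains had 13 chemoreceptor genes at 1 CPM or more in both libraries, and 10 of these were among the 14, whereas whole flies had 2 in most of the 27 libraries (Ir7c and Or43b). By the same rule, 48.1% of all 15682 genes were detected in gamma Kenyon cells and 45.7% in alpha/beta Kenyon cells, 44.2% in V2, 41.4% in DAL, 41.3% in V3, 35.1% in 3-86, 31.0% in R27G01, 44.5% in brains and 55.5% in whole flies. The classes also differed in cells per library, so class and cell number cannot be told apart for the Kenyon cells and V2. With every library thinned to the depth of the shallowest, 0.932 M reads, the 14 genes were the same and the counts were again 13, 9, 6, 4, 3, 2 and 2. In pooled cells, fewer cells carrying a transcript and less of it per cell cannot be told apart.

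The co-receptors were scarce. Orco, the partner of all Or proteins (its symbol lies outside the rule), averaged 0.982 ± 2.43 CPM in neurons (SD, n = 72 libraries) and 0.990 ± 1.37 CPM in whole flies (n = 27). It was detected in 14 of 72 neuron libraries, and no Orco read was counted in the 8 libraries of R27G01. Its highest level was 13.7 CPM in 1 V3 trained library. In DAL control libraries Orco stood at 7.03, 5.46, 0, 2.09 and 0 CPM. Ir25a, the most widely shared Ir co-receptor, was detected in 8 of 72 neuron libraries, with a median of 0 CPM and a maximum of 13.96 CPM in 1 DAL trained library, and in 6 of 27 whole-fly libraries. Ir76b was detected in 1 neuron library at 1.30 CPM. Ir8a had 4 reads in all 72 neuron libraries together and reached 0.260 CPM. In neither brain library was a read of Ir8a, Ir25a or Ir76b counted, which allows up to 0.832 CPM each (3 reads over both libraries; such limits cover counting error only).

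Most receptors known for sweet or bitter taste and carbon dioxide were detected in few libraries. Of the 9 sugar receptor genes none was detected in most libraries of a class and 6 were detected in no neuron library. Among the latter, Gr64b, Gr64c, Gr64d and Gr64e had no read in any library, whole flies included. Their lack of reads therefore does not set the neurons apart. Gr64b shares exon bases with Gr64c, and Gr64d with Gr64e, and whether their reads could be counted was not tested. Gr64f had no read in neurons, which allows up to 0.0048 CPM. Gr5a, a trehalose receptor gene, had 2 reads. Gr64a was detected in 3 neuron libraries, with a maximum of 8.05 CPM. Gr43a, a fructose receptor that also serves as a nutrient sensor in a few brain neurons, was detected in 4 of 72 neuron libraries and reached 2.54 CPM. Gr61a was detected in 8 of 72 neuron libraries, up to 26.1 CPM in 1 V2 trained library, and in 11 of 27 whole-fly libraries. Gr66a and Gr33a, broadly used bitter receptor genes, were each detected in 1 neuron library, at 1.90 and 1.14 CPM. Gr32a, another bitter receptor gene, was detected in 7 of 72 neuron libraries, up to 28.4 CPM in V3 trained 3, and Gr39a, described below, in 31. Of the pair that senses carbon dioxide, Gr21a had 1 read in neurons and Gr63a was detected in 1 library at 1.01 CPM.

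Ir93a and Or43b were the genes found in every class. Ir93a acts beside Ir25a in cool and humidity sensing in the antenna. Its level ranged over 7.61, 11.4 and 19.0 CPM (lowest, median, highest) in gamma and 4.43, 8.32 and 19.8 CPM in alpha/beta Kenyon cells. In output neurons the same 3 values were 3.87, 7.13 and 16.8 CPM in DAL, 4.92, 8.61 and 14.3 CPM in V2, 1.15, 3.79 and 9.32 CPM in V3, 0, 5.82 and 11.3 CPM in 3-86, and 0, 1.96 and 10.1 CPM in R27G01. Ir93a stood above 1 CPM in every library of the first 5 classes. By mean, the order was gamma 12.2 ± 4.41, V2 9.01 ± 2.93, alpha/beta 8.65 ± 3.85, DAL 8.43 ± 3.96, 3-86 4.99 ± 3.87, R27G01 3.97 ± 3.96 and V3 3.96 ± 2.52 CPM (SD), and each neighbour in this order differed by less than the larger of their SDs.

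Or43b, the receptor of an ester-responsive class of antennal neurons, reached its highest mean in 3-86. There it ranged over 0, 43.7 and 127 CPM, with 47.4 ± 39.1 CPM (SD, n = 10). It averaged 29.9 ± 12.1 CPM in alpha/beta and 23.7 ± 10.2 CPM in gamma Kenyon cells (n = 12 each), 18.2 ± 15.0 CPM in DAL, 14.2 ± 7.74 CPM in V2 and 10.4 ± 8.29 CPM in V3 (n = 10 each), and 14.1 ± 10.8 CPM in R27G01 (n = 8). The ranges overlap between all 7 classes. In 3-86 the library with a value of 0 was 1 of 4 trained libraries, and the other 3 stood at 51.2, 127 and 95.0 CPM.

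Or45a, a receptor best known from larval olfactory neurons, showed a gradient. Alpha/beta Kenyon cells ranged over 42.1, 120 and 264 CPM and gamma Kenyon cells over 31.0, 48.5 and 99.6 CPM. Output neurons followed with 26.4 ± 18.0 CPM in V2, 20.998 ± 22.2 CPM in DAL, 14.03 ± 20.2 CPM in V3, 4.45 ± 7.85 CPM in 3-86 and 1.08 ± 3.05 CPM in R27G01. Every Kenyon cell and V2 library carried the gene, against 3 of 10 libraries in 3-86 and 1 of 8 in R27G01. V2, DAL and V3 did not differ beyond their spread.

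Ir68a and Gr77a had their highest medians in both Kenyon cell classes, and both were also found in V2. Ir68a takes part in sensing moist air in the antenna. It ranged over 18.1, 42.6 and 74.4 CPM in gamma and 7.69, 41.6 and 70.0 CPM in alpha/beta Kenyon cells, and was detected in all 24 of their libraries. No Ir68a read was counted in V3 or R27G01, which allows up to 0.0416 and 0.0506 CPM. In 3-86 it was seen at 1.70 and 1.90 CPM in 2 of 10 libraries, and these are the 2 libraries of mixed runs. In V2 it was detected in 5 of 10 libraries, at a mean of 7.29 ± 8.81 CPM. Gr77a, a gustatory receptor gene, ranged over 11.2, 26.6 and 65.2 CPM in gamma and 0, 11.7 and 31.2 CPM in alpha/beta Kenyon cells. In V2 Gr77a was detected in 5 of 10 libraries, at 0, 51.4, 0, 3.05 and 2.00 CPM in trained and 27.1, 0, 0, 4.34 and 0 CPM in control libraries. In DAL a single control library held 52.4 CPM of Gr77a, with 0 CPM in the other 9, and no read of it was counted in V3, R27G01 or the brains.

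**Figure D2:**
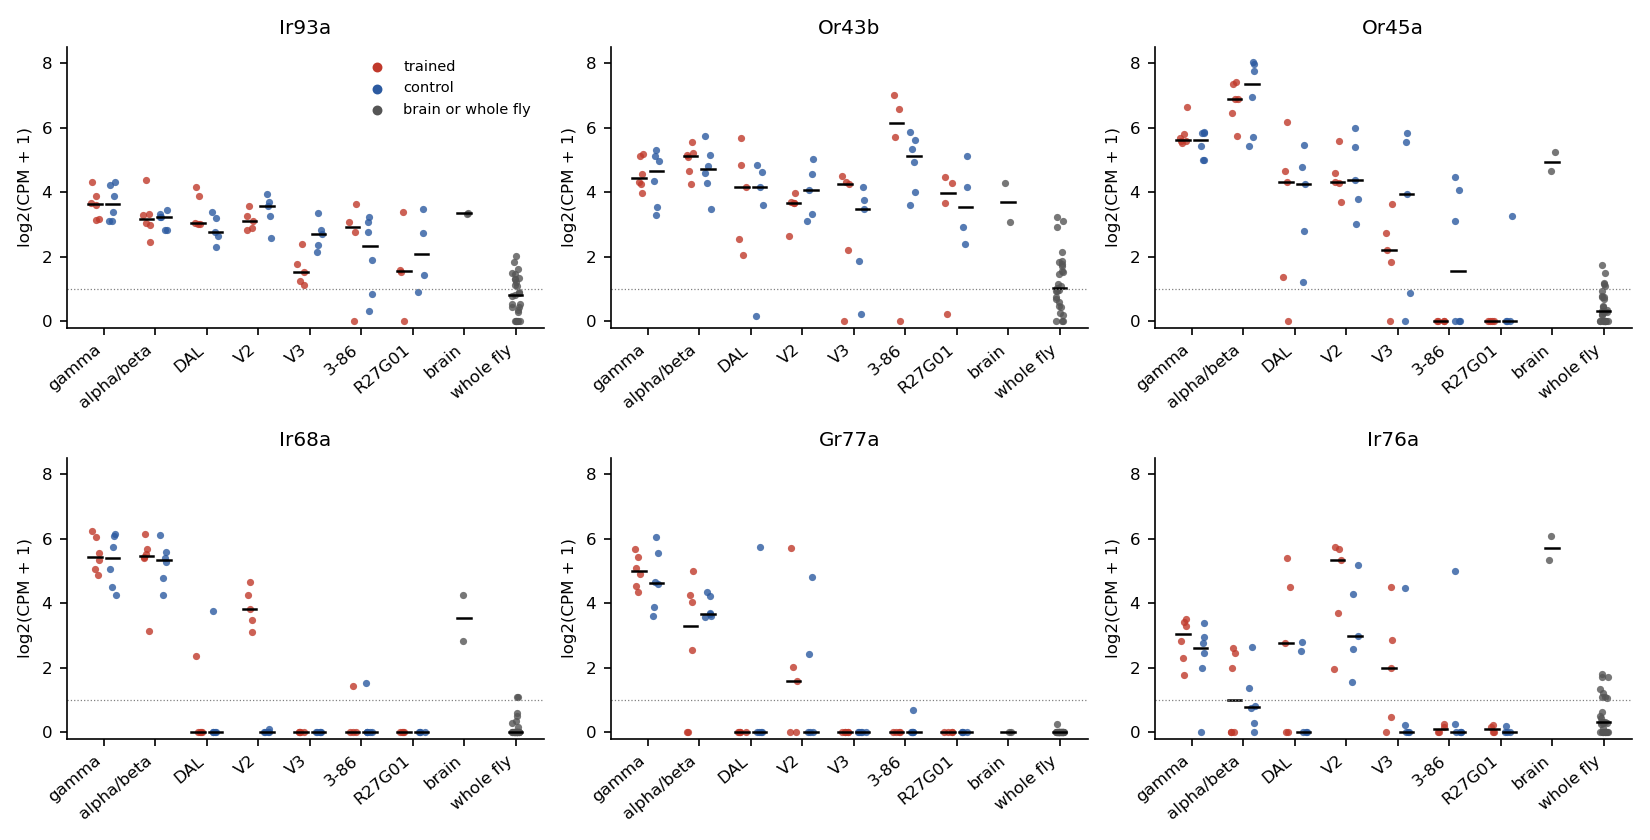
Levels of 6 genes in every library, as log2(CPM + 1), by class and training, with bars at the median and a dotted line at 1 CPM. Ir93a and Or43b lie above the line in nearly all classes, Or45a declines across the classes, Ir68a and Gr77a have their highest medians in both Kenyon cell classes, and Ir76a is detected in all 10 V2 libraries. The 5 trained V2 libraries stand apart from the 5 control V2 libraries in Ir68a.

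Ir76a, an antennal receptor for amines, had its highest class mean in V2. It was detected in 10 of 10 V2 libraries, at 11.8, 50.2, 52.5, 2.91 and 39.3 CPM in trained and 35.1, 1.95, 6.83, 18.6 and 4.94 CPM in control libraries. Gamma Kenyon cells had 5.87 ± 3.27 CPM of Ir76a (11 of 12 libraries) and alpha/beta Kenyon cells 1.75 ± 2.11 CPM (5 of 12). Or85f, which detects odours of parasitic wasps, was detected in most libraries of V2 alone, in 6 of 10, at 5.52 ± 7.16 CPM.

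Or63a, another receptor known from larvae, was found in 5 classes and missing in 2. It averaged 17.1 ± 22.2 CPM in DAL, 18.1 ± 19.2 CPM in V2, 18.2 ± 32.6 CPM in V3, 7.57 ± 6.53 CPM in alpha/beta and 3.63 ± 2.55 CPM in gamma Kenyon cells. In 3-86 it reached 0.363 CPM in 1 of 10 libraries, that library being one of mixed runs, and no Or63a read was counted in R27G01, which allows up to 0.0506 CPM.

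The remaining genes of the 14 were detected in most libraries of gamma Kenyon cells alone (Or22a, Or22b and Gr28b) or of both Kenyon cell classes (Gr39a, Ir56a and Ir47a). Or22a and Or22b, neighbouring ester receptor genes of the same antennal neurons, averaged 1.83 ± 1.63 and 2.16 ± 1.94 CPM in gamma Kenyon cells and were detected in 8 and 7 of 12 libraries there. The sequences of Or22a and Or22b are close, and how shared reads were counted is not given in the sources used here, so the split between them is uncertain. Or22b had a single high library, 92.7 CPM in 3-86 control 4. Gr28b, whose products sense warmth and light, stood at 2.12 ± 1.25 CPM in gamma Kenyon cells (11 of 12 libraries), and reached 101.2 CPM in 1 DAL trained library and 101.5 CPM in 1 V3 trained library. Gr39a, a bitter and courtship receptor gene, averaged 5.23 ± 3.76 CPM in gamma and 6.33 ± 9.47 CPM in alpha/beta Kenyon cells. Ir56a averaged 4.11 ± 2.49 and 8.01 ± 4.82 CPM, and Ir47a 1.73 ± 1.41 and 3.86 ± 3.17 CPM, in gamma and alpha/beta Kenyon cells.

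Of the other 171 genes Or13a was detected most often, in 22 of 72 neuron libraries (up to 30.6 CPM), then Or45b in 12, Or71a in 10, and Ir62a and Or98a in 9 each. Chemoreceptor genes with at least 1 read numbered a median of 44 per gamma and 31.5 per alpha/beta library, 14.5 in V2, 10.5 in DAL, 7.5 in V3, 7 in 3-86 and 5.5 in R27G01. Among the 171, a level of 10 CPM or more was reached 21 times in the 38 libraries of 4 cells, 6 times in the 10 libraries of 12 cells and 2 times in the 24 Kenyon cell libraries. In all, 11 genes reached 10 CPM while being detected in at most 3 neuron libraries, and 10 of these had their highest value in a 4-cell library. Examples are Ir41a, a polyamine receptor gene, at 60.7 CPM in 3-86 trained 3, Or22c at 26.8 CPM in 3-86 control 2 and Or67a at 23.8 CPM in DAL trained 4.

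**Figure D3:**
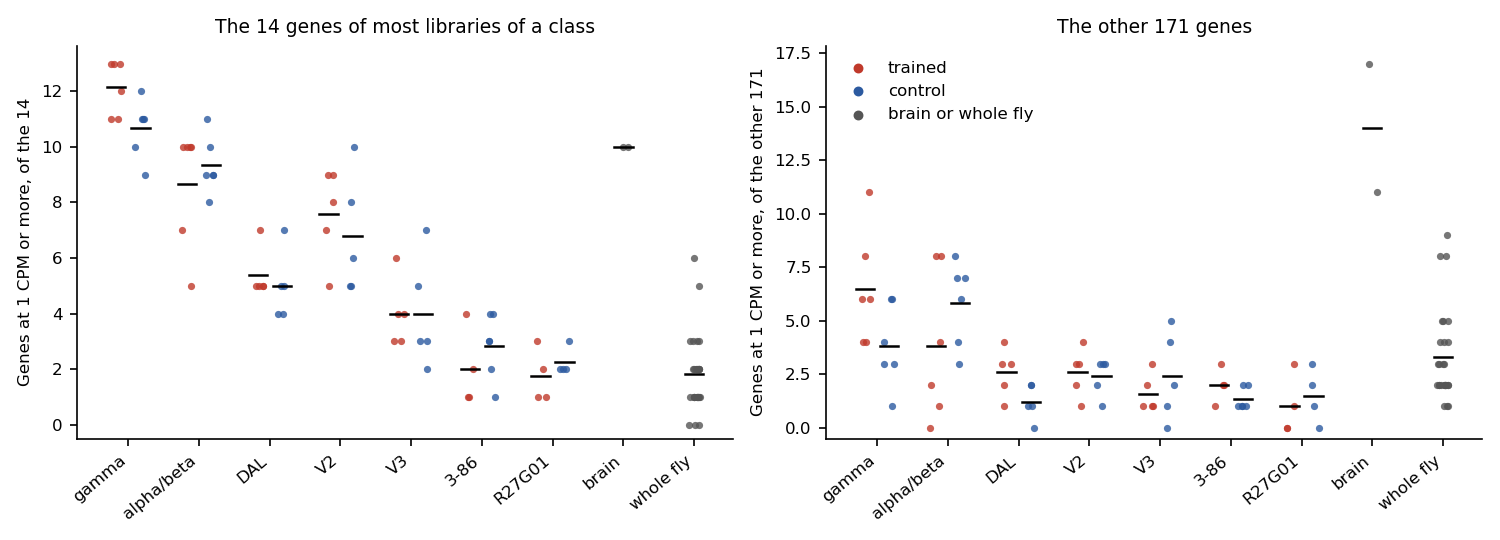
Number of chemoreceptor genes at 1 CPM or more in each library, for the 14 genes detected in most libraries of a class (left) and the other 171 (right), with bars at the group mean. Gamma Kenyon cells had a median of 11 of the 14, and R27G01 a median of 2. Of the other 171 genes, no neuron library held more than 11.

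Neurons were first set against the whole animal, which contains the antennae, legs and mouthparts. In control libraries of the 7 classes Or45a averaged 44.0 ± 65.6 CPM (SD, n = 37), against 0.361 ± 0.461 CPM in whole flies of the drivers (n = 24). Or43b averaged 20.95 ± 14.4 CPM in these neurons and 1.17 ± 0.985 CPM in the flies. Ir93a averaged 7.51 ± 4.24 CPM in the neurons and 0.851 ± 0.860 CPM in the flies, and Ir76a 4.55 ± 8.44 CPM in the neurons and 0.629 ± 0.814 CPM in the flies. All 4 were called higher in neurons by the quasi-likelihood test of edgeR, with p adjusted by Benjamini-Hochberg over all genes tested: log2 fold change 5.98 ± 0.72 (SE) and adjusted p = 9.82e-11 for Or45a, 4.36 ± 0.46 and 1.91e-12 for Or43b, 3.12 ± 0.47 and 3.7e-08 for Ir93a, and 2.68 ± 0.89 and 0.00704 for Ir76a. The 2 sides overlapped for each of the 4.

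In the opposite direction, Ir7c, a salt taste receptor gene, had 1 read in the 37 control neuron libraries and 4.25 ± 4.19 CPM in whole flies of the drivers, and it was called lower in neurons (adjusted p = 7.03e-12, edgeR). Of the 185 genes 25 passed the filter on low counts, and 4 were called higher and 1 lower, where 30.2% and 34.3% of all 10549 genes tested were called. For 18 of the 25 at least 1 group on each side had no read, so the difference of mean log levels had no bounded estimate. Taken with each side as 1 group of libraries, 16 of the 25 were higher, where 39.3% of all genes were, and 2 were lower (Ir7c and Ir51b), where 26.8% were. The added higher genes include Gr77a, with 9.44 ± 15.9 CPM in neurons and no read in the 24 fly libraries of the drivers (up to 0.0256 CPM), and Ir68a, with 13.9 ± 22.3 CPM in neurons and 0.0949 ± 0.259 CPM in flies. The filter on low counts keeps a gene that is high on 1 side, as it did Gr77a. Without it, 4 of 158 members were higher in the design of mean levels, where 2768 of all 14051 genes were. In that setting 2 members were lower, where 4027 of all genes were. The design with each side as 1 group was not run without the filter. Without R27G01 control library 4, the only one of its group with reads of Or45a and Ir76a, these 2 genes had no bounded estimate either. With the size factors of DESeq2 Ir76a was no longer called, and the median of all genes lay at -0.90 instead of 0.01 on the log2 scale.

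Kenyon cells were then set against output neurons, in control libraries. Ir68a showed the clearest separation: it averaged 41.6 ± 19.5 CPM in Kenyon cells (SD, n = 12) and 0.580 ± 2.52 CPM in output neurons (n = 25), and the lowest Kenyon cell library, at 17.8 CPM, lay above the highest output library, at 12.5 CPM. Or45a averaged 101.5 ± 89.1 CPM in Kenyon cells and 16.4 ± 19.1 CPM in output neurons, with a log2 fold change of 3.03 ± 0.72 (SE) and adjusted p = 0.000895 (edgeR). Or45a was the only gene called here with reads in every class. In all, 14 of 21 genes tested were called higher in Kenyon cells, where 17.5% of all 9168 genes tested were called higher. Of the 21, 0 were called lower (0 also at an unadjusted p under 0.05), where 1307 of all genes were called lower. DESeq2 called 0 of 136 members lower, where 1711 of all 12767 genes were. The 14 called higher are Or45a, Or45b, Or63a, Or85f, Or98a, Ir25a, Ir47a, Ir56a, Ir62a, Ir68a, Gr9a, Gr28b, Gr39a and Gr77a. For 13 of the 14 at least 1 output class had no read, and the size of their fitted fold depends on the prior count. The filter on low counts keeps a gene that is high on 1 side, as it did Or98a, Gr9a and Ir62a. Without it, 44 of 145 members were called higher, and 2628 of all 13538 genes.

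With each side as 1 group of libraries, 6 of the 21 were called higher in Kenyon cells, where 10.5% of all genes were. They were Ir68a (log2 fold change 6.21 ± 1.05, adjusted p = 8.03e-06, edgeR), Gr9a (5.58 ± 0.99, 1.88e-05), Or98a (6.25 ± 0.97, 2.29e-05), Or45a (2.87 ± 0.76, 0.0032), Ir62a (3.48 ± 1.02, 0.00734) and Gr39a (3.04 ± 1.09, 0.0302). Gr9a, Ir62a and Or98a were low in Kenyon cells too: Gr9a averaged 1.57 ± 2.48 CPM in Kenyon cells and 0.0260 ± 0.130 CPM in output neurons, Ir62a 0.834 ± 1.14 and 0.0671 ± 0.302 CPM, and Or98a 0.962 ± 1.19 CPM and no read in the 25 output libraries (up to 0.0141 CPM). The fitted fold of Or98a depends on the prior count. Or63a, Or85f and Gr28b turned round between the designs: their means were 5.37, 0.523 and 0.972 CPM in Kenyon cells and 9.76, 1.54 and 1.44 CPM in output neurons, and as 1 group a side none of the 3 was called. Kenyon cell libraries also held more cells and less fat body RNA than output libraries, and the part of either was not tested.

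**Figure D4:**
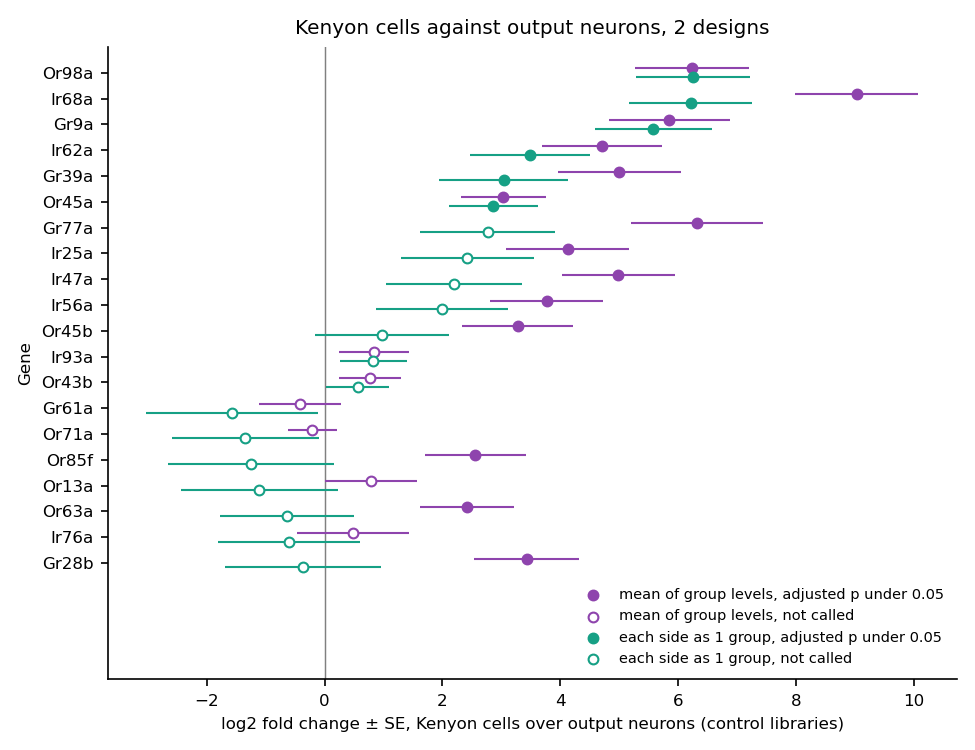
Log2 fold change with its SE of 20 chemoreceptor genes between Kenyon cells and output neurons (control libraries), from the mean of the class levels (purple) and from each side as 1 group (green); filled points passed an adjusted p of 0.05. The designs are close for Or98a, Gr9a and Or45a, and point opposite ways for Or63a, Or85f and Gr28b.

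Each class was next set against the other 6 in the same fit. Of the 21 genes tested, 10 were called higher in gamma Kenyon cells (9.95% of all genes), 12 in alpha/beta Kenyon cells (11.7%), 3 in DAL (9.36%), 5 in V2 (2.71%), 2 in V3 (5.44%), 1 in 3-86 (15.4%) and 0 in R27G01 (11.1%). In R27G01 no member was higher at an unadjusted p under 0.05 by edgeR and 3 were lower. Of all 9168 genes 2636 had such a p there, in either direction. DESeq2 tested 136 members and 12767 genes in each class. It called 1 member higher and 8 lower in R27G01, where 1023 and 1307 of all genes were. Over the 7 classes DESeq2 gave 21 higher and 19 lower calls, and edgeR 33 and 1. Of all genes DESeq2 called 857 higher in gamma, 1105 in alpha/beta, 849 in DAL, 345 in V2, 462 in V3 and 1592 in 3-86. Lower were 1090, 1061, 530, 642, 240 and 980, in the same order. The gene that edgeR called lower was Ir56a in V2 (1.57% of all genes): it had no read in 5 V2 control libraries and 3.56 ± 5.43 CPM in the other 32. Its adjusted p was 0.0479, and the call was lost in 9 of 25 alternatives, among them DESeq2, 1 group a side and leaving out any 1 of the 5 V2 control libraries. All but 1 of these calls involve a class without a read of the gene. The exception is Or45a in alpha/beta Kenyon cells, with 157 ± 99.0 CPM (SD, n = 6) and 22.02 ± 21.4 CPM in the other classes (n = 31); its log2 fold change was 3.66 ± 0.77 (SE), with adjusted p = 0.000522 (edgeR). The filter on low counts keeps a gene that is high in 1 class. Without it, 145 members were tested. Called higher were 35 in gamma, 54 in alpha/beta, 7 in DAL, 10 in V2, 5 in V3, 7 in 3-86 and 4 in R27G01. Of all 13538 genes 1870, 2467, 1202, 578, 986, 2134 and 1209 were called higher, in the same order.

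As 1 group a side, Or45a stayed higher in alpha/beta Kenyon cells (3.06 ± 0.85, adjusted p = 0.0269), and Gr9a was higher there as well (4.61 ± 1.13, adjusted p = 0.0138), where 2.54% of all genes were. In 3-86 Or22b was higher (5.37 ± 1.32, adjusted p = 0.0136; 2.41% of all genes), a value that rests on control libraries 3 (one of mixed runs) and 4 with 7.49 and 92.7 CPM, while the other 4 were at 0. Without the libraries of mixed runs its fold in the design of mean levels was 8.84 on the log2 scale, and 8.67 with them. Or63a was lower in 3-86 (adjusted p = 0.0168; 3.56% of all genes), with no read in 6 control libraries, which the mean-level design could not estimate, and 9.95 ± 18.0 CPM in the other 31. These p-values are from edgeR. The calls of Gr77a and Ir68a in DAL rested on 1 library, DAL control 2, at 52.4 and 12.5 CPM, with 0 CPM in the other 4 control libraries.

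Training was compared within each class, with trained libraries against control libraries. No chemoreceptor gene was called in any class by edgeR, and neither was any other gene (0% of 7840 genes tested in gamma, 7228 in alpha/beta, 6953 in DAL, 7281 in V2, 6858 in V3, 6692 in 3-86 and 5548 in R27G01). Of 44 tests of a member in a class, 1 had an unadjusted p under 0.05 (edgeR). Of all genes tested, 440 had such a p in gamma, 198 in alpha/beta, 136 in DAL and 393 in V2. In V3, 3-86 and R27G01 100, 185 and 133 genes had one. DESeq2 called 2 members, both in V2. Without the filter 113 of 477 tests of a member in a class had an unadjusted p under 0.05 and none was called (edgeR). That setting tests every member with at least 1 read in the class. The share of all genes with such a p was not counted there, so the 113 cannot be set against it. Trained and control libraries did not overlap in CPM for 1 member in V2, where that held for 1.61% of all genes, and for none of those tested in gamma (0.128% of all genes), alpha/beta (0.111%), DAL (0.964%), V3 (0.321%), 3-86 (0.643%) and R27G01 (3.91%).

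That gene was Ir68a. In V2 it stood at 7.55, 10.2, 17.9, 24.0 and 13.1 CPM in the 5 trained libraries and at 0.0769, 0, 0, 0 and 0 CPM in the 5 control libraries. The groups were apart by far more than their own spread, yet over all genes the result did not pass: the log2 fold change was 8.90 ± 1.76 (SE), p = 0.000119 and adjusted p = 0.406 (edgeR). By DESeq2 it passed, with an adjusted p of 1.51e-10, where 1% of 9496 genes were called. In the Kenyon cells, where the gene was highest, trained libraries (n = 12) and control libraries (n = 12) overlapped throughout, and a difference between classes in the effect of training was not tested. The endings of the library titles, whose meaning the labels do not give, are unevenly spread in V2: the endings of all 5 trained libraries begin like those of 2 of the 5 control libraries, and the other 3 control libraries differ. Ir68a was at 0 CPM in those 2 control libraries. With the ending as a term, an alternative chosen after seeing the data, the log2 fold change was 10.19 ± 3.04 (SE), p = 0.00495 and adjusted p = 0.9998 (edgeR). None of the 7 Kenyon cell marker genes passed the edgeR test in V2. As 0 of 7281 genes passed there, this does not set the markers apart from Ir68a. Trained and control libraries overlapped for 6 of the markers and for their sum. The sum of ey, mub, rut, dac, toy, Pka-C1 and prt was 3078 to 8673 CPM in trained V2 libraries and 2386 to 3639 CPM in control V2 libraries. That is 29.4% of the Kenyon cell mean in trained and 16.4% in control V2 libraries, while Ir68a was at 33.6% and 0.035%. The marker toy was at 386.4 to 817 CPM in trained and 66.0 to 229 CPM in control V2 libraries, without overlap (p = 2.26e-05 and adjusted p = 0.164, edgeR). The marker ey stood at 34.8 to 303 CPM in trained and 4.43 to 71.1 CPM in control ones. The part of these markers in the result was not tested.

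The second gene that DESeq2 called was Or67a. It had no read in 5 trained V2 libraries, which allows up to 0.0642 CPM, and averaged 7.06 ± 10.3 CPM in the 5 control V2 libraries, of which 2 had reads, up to 22.7 CPM. This gene did not pass the filter on low counts for the edgeR test.

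Brains of the reporter line were compared with whole flies of that line. The labels number the brain libraries 1A and 1B and do not say whether they are separate brains; a B in other titles marks a further run of a library. Their counts differ by more than chance sampling of reads gives (chi-square over degrees of freedom 13.4), and p-values may cover technical spread only. Of 19 members tested, 11 were higher in brains, where 28.2% of all 9983 genes tested were higher, and 2 were lower, where 47.7% were. The median log2 fold change was 3.05 over these members and -1.07 over all genes. The filter on low counts keeps a gene that is high on 1 side. Without it, 20 of 121 members were higher in brains, where 2956 of all 12507 genes were. Without it, 2 members were lower, where 4783 of all genes were. Ir76a stood at 39.7 and 66.9 CPM in the brains, against 0.0930, 0.204 and 0.555 CPM in the flies, a log2 fold change of 7.65 ± 0.64 (SE; adjusted p = 4.67e-06, edgeR). Ir56a stood at 32.2 and 49.3 CPM in the brains and reached 0.0930 CPM in 1 of 3 flies (adjusted p = 2.44e-06, edgeR). Or45a was at 36.7 and 24.2 CPM in the brains and 1.21, 2.35 and 1.11 CPM in the flies (4.54 ± 0.52; adjusted p = 3.88e-05, edgeR). For each of these 3 genes both brains lay above all flies.

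The other genes higher in brains were Ir47a, Ir62a, Ir68a, Ir93a, Ir100a, Or63a, Gr39a and Gr68a, the last a gene of male courtship taste. Ir62a rests on 1 library: it stood at 35.2 and 1.76 CPM in the brains and 1.30, 3.27 and 4.38 CPM in the flies, and without brain replicate 1 its log2 fold change was -0.41. Or43b was at 7.50 and 18.5 CPM in the brains and 6.61, 7.56 and 8.45 CPM in the flies and was not called (1.13 ± 0.52, adjusted p = 0.0756, edgeR). Gr77a, present in all gamma libraries, had no read in either brain. Lower in brains were Ir31a, an antennal receptor gene, and Ir7c: each had no read in the brains, which allows up to 0.832 CPM, and averaged 2.28 ± 0.104 and 6.56 ± 3.76 CPM in the flies (SD, n = 3; adjusted p = 0.0202 and 0.00744, edgeR).

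Several of the 14 genes lie within other genes. The annotation used for this (assembly BDGP6, matched by symbol) holds 182 of the 185 members. The SMARTer kit does not mark strand and the counting rule is not given, so reads of a member and of a gene on the opposite strand cannot be told apart. Of the 14, 3 share exon bases with another gene (Ir47a with the pseudogene Ir47b, Ir76a with CG14102 and Or43b with Cul1) and 4 lie in an intron (Or45a in CG13739 and CG13954, Ir56a in 5-HT1A, Gr77a in CG13252 and Gr39a in Mondo); Ir47a also lies in an intron of SLO2. Thus 21.4% of the 14 share exon bases and 28.6% lie in an intron, against 16.1% and 10.1% of the other 168 matched members (27 and 17 genes) and 31.7% and 10.3% of all 11576 genes in both sources. Ir68a, Ir93a, Or22a, Or22b, Or63a, Or85f and Gr28b overlap no gene in either way.

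The levels of the surrounding genes can be set beside those of the members. CG13739 averaged 390 CPM in gamma and 429 CPM in alpha/beta Kenyon cells, 117 CPM in V2, 116 CPM in DAL, 31.2 CPM in V3, 13.4 CPM in 3-86, 15.5 CPM in R27G01, 91.0 CPM in brains and 0.806 CPM in whole flies. Or45a, which lies inside it, was highest in alpha/beta and gamma Kenyon cells and lowest in 3-86, R27G01 and whole flies. CG13954, which also holds it, averaged 42.7 CPM in gamma and 82.5 CPM in alpha/beta Kenyon cells, 87.6 CPM in V2, 24.1 CPM in DAL, 32.5 CPM in V3, 13.3 CPM in 3-86, 6.80 CPM in R27G01, 41.7 CPM in brains and 1.13 CPM in whole flies. The gene for the serotonin receptor 5-HT1A averaged 336 CPM in 3-86, 357 CPM in R27G01 and 61.2 CPM in brains. Ir56a, which lies inside it, averaged 0.0754, 1.83 and 40.8 CPM there. Among the neuron classes both were highest in alpha/beta Kenyon cells (393 and 8.01 CPM), and both were lowest in whole flies (1.65 and 0.003 CPM). SLO2 averaged 629 CPM in alpha/beta and 337 CPM in gamma Kenyon cells, 134 CPM in 3-86, 538 CPM in brains and 7.44 CPM in whole flies. Ir47a in its intron averaged 3.86, 1.73, 0.012, 22.6 and 0.214 CPM in the same samples. Cul1 averaged between 49.4 and 87.7 CPM in the 7 neuron classes and 128 CPM in whole flies, whereas Or43b averaged 10.4 to 47.4 CPM in the neuron classes and 1.88 CPM in whole flies. CG13252 averaged 14.7 CPM in 3-86, 14.8 CPM in R27G01, 25.4 CPM in brains and 13.3 CPM in gamma Kenyon cells, and Gr77a in its intron had 0.0602, 0, 0 and 31.5 CPM in the same samples.

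**Figure D5:**
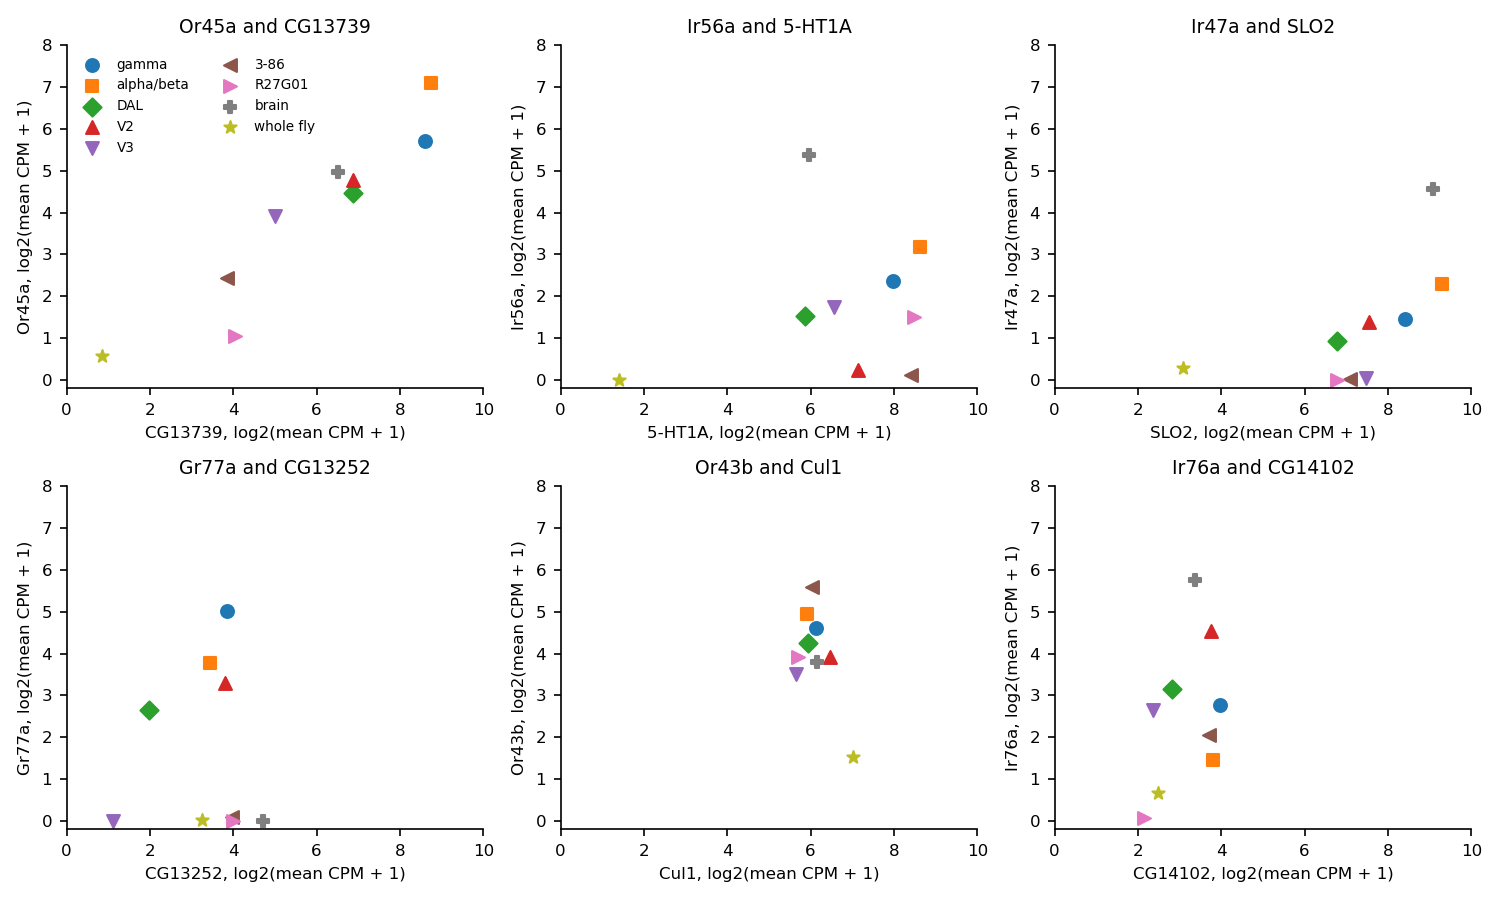
Mean level of 6 members against that of the gene they lie in or share exon bases with, both as log2(mean CPM + 1); each symbol is a neuron class, the brains or the whole flies. Or45a and CG13739 are both lowest in whole flies, and Or43b varies across classes while Cul1 stays between 49.4 and 128 CPM.

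Ir93a lies between the ribosomal protein gene RpS30 and the glutamate receptor gene KaiR1D. KaiR1D averaged 51.1 CPM in gamma Kenyon cells, 55.4 CPM in V2, 12.8 CPM in R27G01, 268 CPM in brains and 0.904 CPM in whole flies. Ir68a lies between CG42671 and scyl, whose means in R27G01, where Ir68a had no read, were 17.2 and 88.0 CPM. Gr28a, next to Gr28b, averaged 0.0397 CPM in gamma Kenyon cells and reached 1 CPM in no neuron library.

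Genes that work beside chemoreceptors were listed as well. Many odorant-binding proteins carry odours in the fluid around sensory neurons and are made by support cells. The list was made by gene symbol and held 54 genes in the counts, and the tissue that makes each was not examined. Of these genes, 30 were tested between neurons and whole flies: 6 were higher in neurons and 14 lower, where 30.2% and 34.3% of all genes were. Their median log2 fold change was -1.72, against 0.01 over all genes. Of 25 tested between classes, 20 were higher in 3-86 than in the other classes (15.4% of all genes), 15 in DAL (9.36%), 14 in V3 (5.44%) and 5 in R27G01 (11.1%), and none in gamma (9.95%). The summed median of the photoreceptor markers was 4114 CPM in 3-86, 3954 CPM in DAL, 861 CPM in V3, 432 CPM in R27G01 and 25.7 CPM in gamma Kenyon cells. The antennal support cell markers in the counts were 3 genes (lush, Os-C and a5), all among the 54 above and so no separate evidence. Their summed median was 33.6 CPM in 3-86, 0.186 CPM in DAL, 26.8 CPM in V3, 0 CPM in R27G01 and 0 CPM in gamma. The part of both marker lists was not tested. lush, which serves pheromone detection, averaged 23.1 ± 31.6 CPM in 3-86 (n = 10), 12.6 ± 21.7 CPM in V3 (n = 10), 0.0058 ± 0.0202 CPM in gamma Kenyon cells (n = 12) and 1.51 ± 1.55 CPM in whole flies of the drivers (n = 24). Of 10 membrane and signalling partners tested, 4 were higher in neurons (Galpha49B, Ggamma30A, norpA and rdgB, genes of G protein and phospholipase C signalling) and 2 lower against the same shares (Snmp1, a pheromone co-receptor gene, and pyx). Snmp1 averaged 0.528 ± 1.29 CPM in control neurons (n = 37) and 4.17 ± 5.12 CPM in whole flies of the drivers (n = 24).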

How the data were processed

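RNA-seq counts were analysed from neurons, brains and whole flies. The authors deposited whole-number read counts per gene for each of 185 samples, without normalization. Per the submitters' processing notes, reads went through cutadapt, TopHat2, Bowtie, Bowtie2, HTSeq and DESeq2 1.4 with build BDGP5; the counting mode and strand setting are not given in the sources used here. Per the labels' protocols, RNA was amplified with a SMARTer kit.

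The runs of 84 libraries were summed, giving 101 libraries. CPM was computed from the counts over all genes. Genes passing filterByExpr were tested in edgeR 4.0.16 (R 4.3.3) by quasi-likelihood (robust setting, TMM normalization factors) with Benjamini-Hochberg adjustment over all genes tested, at 0.05, and again in DESeq2 1.42.0; 17 comparisons were made and the fit was tested on simulated data. Replicates are libraries, and no source says which flies they came from, so a p-value covers the spread among libraries, which may be technical. Limits for 0 reads are 3 reads and cover counting error only.

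Groups followed the labels. The members, the lists, the tests and the alternatives were chosen with earlier results of these data known, except the designs with each side as 1 group and with the ending of the library titles as a term, which were chosen after seeing the data. Named genes are the 14 members detected in most libraries of a class, members called in a comparison, a list of co-receptors and well known receptors, and genes next to the 14; further examples were chosen after their values were seen. Gene positions come from another assembly than the counts, so no coordinates are given, and no sequences are shown.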

Additional observations from a re-analysis of the deposited data

Results flagged for a closer look

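In 92 sets of libraries (a gene or the sum of the chemoreceptor genes in a group of 4 to 6 libraries), a single library stood far above the rest by Dixon's criterion in 9. The criterion flags about 1 in 20 sets by chance where values are normally distributed, which was not tested for CPM. The sets also share libraries, so the 9 cannot be set against that rate. No cause was tested. Gamma trained library 2 was the highest for 3 genes: Gr39a at 13.2 CPM, against 1.05 to 3.74 CPM in the other 5 libraries, Ir56a at 11.3 CPM, against 0.976 to 4.37 CPM, and Or45a at 99.6 CPM, against 45.3 to 54.4 CPM. Ir56a also reached 5.72 CPM in gamma control library 4, against 3.00 to 3.42 CPM in the others, and 19.6 CPM in alpha/beta control library 6, against 4.97 to 7.66 CPM. That last library is the sum of a pair of samples whose counts differ (chi-square over degrees of freedom 35.3). Ir93a stood at 19.8 CPM in alpha/beta trained library 2, against 4.43 to 8.97 CPM, and Or63a at 10.2 CPM in gamma trained library 3, against 3.29 to 4.70 CPM. The summed level of all chemoreceptor genes was 237 CPM in V3 trained library 3, against 29.9 to 54.7 CPM, and 81.6 CPM in R27G01 trained library 3, against 11.8 to 21.02 CPM.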

How the results depend on the processing

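With detection at 5 CPM in place of 1 CPM, 8 genes remained of the 14, and with at least 5 reads there were 17. Members higher in neurons than in whole flies numbered 4 of 25 tested. By DESeq2 they numbered 9 of 152, and 16 of 25 with each side as 1 group. Those lower numbered 1, but 4 by DESeq2, 2 of 158 with no filter on low counts and 2 with each side as 1 group. Of all genes, 3190 of 10549 were higher and 3620 lower. By DESeq2, of all 13827 genes 2373 were higher and 5538 lower. With no filter 4027 of 14051 genes were lower, and with each side as 1 group 4149 of 10549 were higher and 2828 lower. Kenyon cell calls, all of them higher, numbered 14 of 21 tested. They were 9 of 136 by DESeq2, 44 of 145 with no filter and 6 of 21 with each side as 1 group. Among all genes 1605 of 9168 were called higher and 1307 lower. By DESeq2, 1813 of 12767 genes were called higher and 1711 lower. With no filter 2628 of 13538 were called higher and 1311 lower. With each side as 1 group 965 of 9168 were called higher and 1607 lower. Calls over the 7 class comparisons numbered 34, and 4 with each side as 1 group, with 21 members tested in each class. With no filter they numbered 123, with 145 members tested in each class. The counts or shares of all genes called higher are given above. Training calls numbered 0 in 44 tests of a member in a class, but 2 in 419 by DESeq2. Brain calls numbered 13 of 19 tested, but 22 of 121 with no filter. Among all genes 2815 of 9983 were higher in brains and 4757 lower. With no filter 2956 of 12507 were higher and 4783 lower. Leaving out 1 library at a time was done only in groups of 2 to 5 libraries. The Kenyon cell groups and the 3-86 control group, of 6 libraries each, stayed whole. Over these fits there were 2 to 4 higher and 1 to 1 lower calls in neurons against flies. There were 14 to 16 in Kenyon cells against output neurons, 31 to 40 over the classes, 0 to 0 for training and 12 to 14 in brains.

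With each side as 1 group, these log2 fold changes turned round: Gr28b -0.368, Or63a -0.64 and Or85f -1.254 in Kenyon cells, Gr9a -0.373, Ir47a -0.479 and Or22b -0.705 in gamma, Or85f -0.316 in alpha/beta and Ir68a -2.709 in DAL. Leaving out 1 library at a time also did so: Gr77a ranged over -5.501 to 4.512 and Ir68a over -4.822 to 3.041 in DAL (lowest without DAL control 2), Ir47a over -3.009 to 5.029 in V2 (without V2 control 4) and Ir62a over -0.41 to 3.696 in brains (without brain 1). Of 1547 values of single genes under the alternatives, 1459 kept direction and call and 76 kept direction only. No paired analysis was possible because the labels do not say which trained and control libraries form a pair; with the ending of the library titles as a term, chosen after seeing the data, 0 members were called for training and 1 gene in all, in gamma. Genes with few reads in 4-cell libraries limit the comparisons that hold them; beyond the settings named, the cause was not tested.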
